A study of Mus musculus with 6 samples.

Results

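Genes that decide between survival and death of a cell were compared in natural killer T (NKT) cells of the mouse thymus that carry CD103 and in those that do not. The set holds 34 genes of the BCL2 family, the death receptor complex, the caspases and the inhibitors of apoptosis, chosen from a list of gene symbols, and every probe annotated to 1 of them was taken. A named probe was found for 31 of the 34 genes, of 19057 genes named on the array, which gave 84 probes of the 45263 in the signal table. Bax, Ripk1 and Bcl2a1a had none named here and were not analysed. The invariant T cell receptor of NKT cells binds lipids held by CD1d, and CD103 is the alpha E integrin chain, a receptor for E-cadherin. Both populations were mature thymic NKT cells, positive for CD44 and NK1.1, from male C57BL/6 mice. CD103 was on the surface of the one and absent from the other. No treatment or mutant allele is given for either. Each was measured on 3 Illumina arrays, which the series design calls biological replicates, in a series concerned with DOCK8 and NKT cell survival.

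In the mitochondrial route to apoptosis, BH3-only proteins sense damage or loss of growth factors and either activate the pore formers BAX and BAK or occupy the survival proteins BCL2, BCL-XL, MCL1 and A1 that hold the pore formers in check. Pores release cytochrome c, which assembles with APAF1 and caspase-9 into the apoptosome, whereas FAS and other death receptors recruit FADD and caspase-8 at the membrane. Inhibitor of apoptosis proteins act on caspases and on receptor signalling, and SMAC (Diablo) relieves that inhibition. In T lymphocytes, BCL2 and MCL1 are sustained by cytokines such as IL-7 and IL-15, on which NKT cells depend.

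Levels are log2 signals after background correction and quantile normalization, and a difference is CD103+ minus CD103- on that scale. A probe was kept when its detection p, which sets its signal against negative control beads, was under 0.05 on at least 3 of 6 arrays. Of the 84 probes, 56 were kept, in 27 genes, and 47 of the kept probes passed that detection level on each of the 6 arrays. The other 28 probes were not tested, and 18 of these were detected on no array. A probe was called when its limma p, adjusted by Benjamini-Hochberg over all 17462 kept probes, was under 0.05.

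CD103+ arrays 1, 2 and 3 had mean signals of 612.7, 825.9 and 501.6, and CD103- arrays 1, 2 and 3 had 526.1, 277.4 and 276.5, so that CD103- arrays 2 and 3 were dimmer than the other four. All 11 T and NKT cell markers tested were kept, and among them only Itgae, which encodes CD103, was called, with a difference of 4.73. Markers of macrophages moved with the population: 9 of the 10 kept, from a list of 12, were called higher in CD103+ cells, with a summed linear level of 3066 to 4213 on CD103+ arrays against 337.2 to 354.0 on CD103- arrays. On CD103- arrays 8 of the 12, C1qa, C1qb and Adgre1 among them, were detected nowhere, and 1 of the 8, Cd14, on no CD103+ array either. Other lists had no call: the 2 kept B cell markers of 6 listed summed to 120.1 to 151.5 against 68.5 to 127.0, and the 4 kept of 7 for double-positive thymocytes to 1481 to 1925 against 2133 to 2344. Most of the thymocyte sum is Cd8b1, at log2 levels of 10.35 to 10.97, so it does not stand for the list. The differences were -0.38 at Cd8b1, -0.47 at Cd4, -0.17 at Dntt and 0.31 at Rag1, and Cd8a and Rag2 were detected on no array. The B cell markers, Cd79b (0.72) and Cd22 (0.57), were each detected on 3 CD103+ arrays but on 1 CD103- array, so their CD103- sums hold undetected values. Of 7 dendritic cell markers 1 was kept, Siglech, at 133.5 to 194.6 against 200.9 to 273.5, and 5 were detected on no array. Of 4 erythroid markers 1 was kept, Hba-a1, at 82.4 to 653.2 against 83.1 to 366.7. Of 8 genes of thymic epithelium and stroma, 0 were kept. The part of macrophage RNA and of array brightness in the differences below was not tested. Values without the dim arrays leave 1 CD103- array under the same normalization, so they are a description and no test of either. Dock8, the gene the series is named for, had levels of 8.74, 8.95 and 8.96 in CD103+ cells and 9.19, 8.79 and 9.17 in CD103- cells on its brightest probe, with a difference of -0.17 (SE 0.17, adjusted p = 0.680). Its other kept probe, a dimmer one, gave 0.16 (SE 0.26, adjusted p = 0.806 in limma).

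One Bcl2 probe was lower in CD103+ cells, and it was the single call among the 56 member probes. With the replicate number as a block, 0 member probes were called. Bcl2 encodes the founding survival protein of the family. The call made 1.79% of the member probes, against 1.18% of all kept probes called in either direction and 0.252% called lower. Of all 206 calls, 162 were higher and 44 lower in CD103+ cells. That split moved with the scaling, to 83 and 74 under median scaling, 155 and 87 under cyclic loess and 205 and 116 without background correction. With each gene taken by its brightest kept probe, 0 of 27 member genes were called, against 1.38% of 8999 genes, and 4 were at an unadjusted limma p under 0.05. At that unadjusted level there were 11 member probes, 5 higher and 6 lower, or 19.6% against 15.1% of all kept probes. Of the 5 higher ones, a Bcl2l11 probe was undetected on 2 of 3 CD103- arrays and an Xiap probe on all 3, so these were kept through the CD103+ arrays. The 3 values of one population lay wholly above or below those of the other in 18 member probes, 8 higher, that Xiap probe among them, and 10 lower, or 32.1% against 21.9%. The median member difference was -0.0066, beside 0.045 over all kept probes, and 51 of 56 member probes lay within 0.5 of 0 (91.1%, against 84.0% of all). The median SE over member probes was 0.170.

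**Figure D1:**
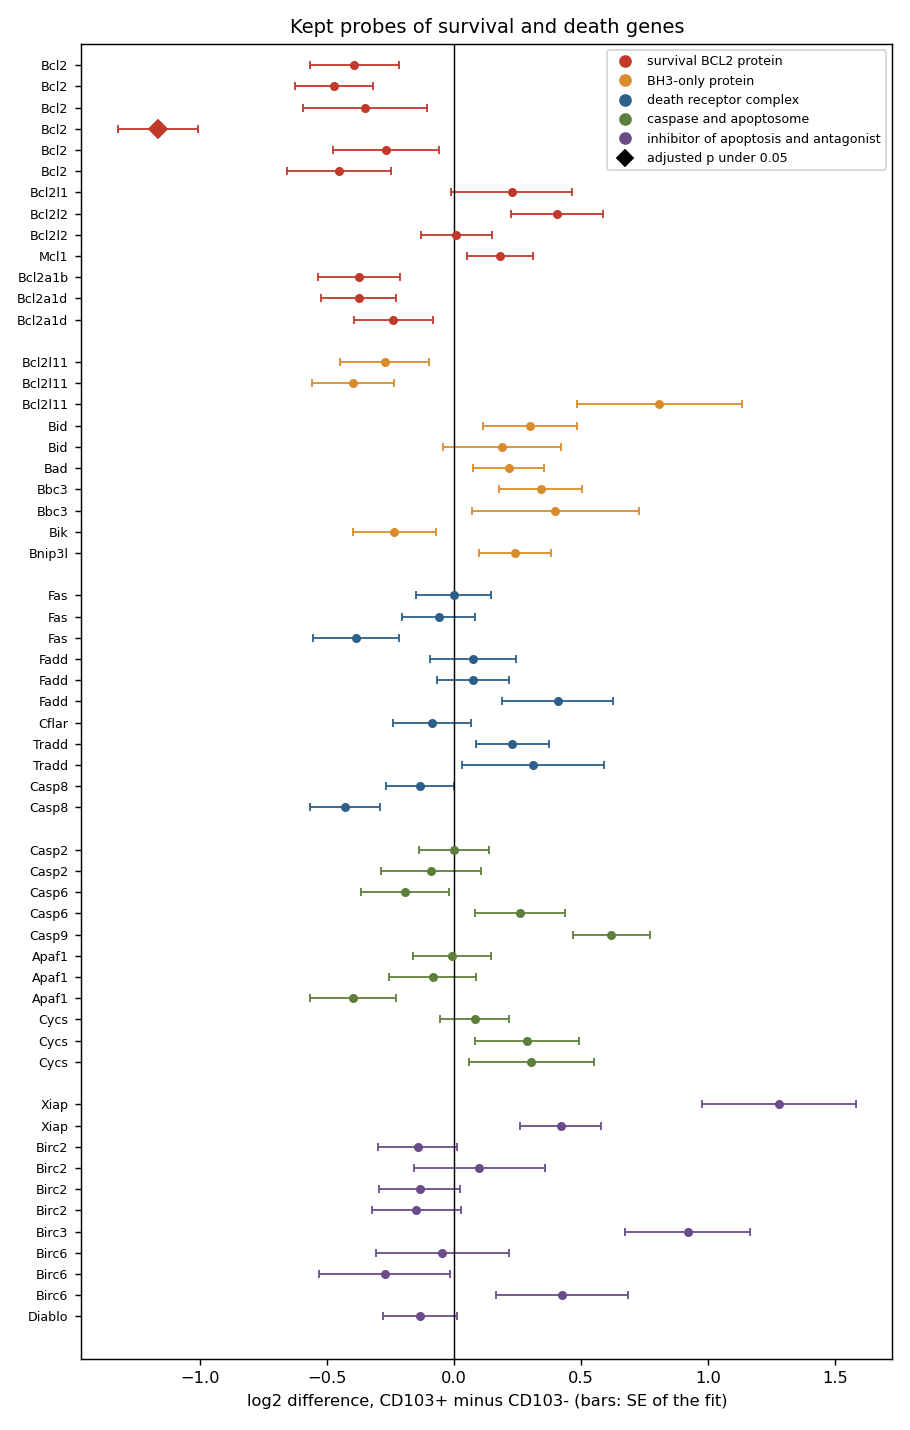
Difference between CD103+ and CD103- NKT cells for each of the 56 kept probes, in log2 units on the horizontal axis, with the SE of the limma fit as bars and probes grouped and coloured by role. The diamond is the single called probe, a Bcl2 probe at -1.17, and the largest positive difference is 1.28, at Xiap.

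The Bcl2 probe called, ILMN_2682162, is annotated to the second of the 2 RefSeq Bcl2 transcripts in the gene table used. It was detected on all 6 arrays with a detection p listed at 0. Its levels were 8.86, 8.98 and 8.79 in CD103+ cells and 10.19, 10.13 and 9.82 in CD103- cells. The populations did not overlap, and the distance between them was several times the spread within each (mean ± SD, 8.88 ± 0.09 against 10.04 ± 0.20, n = 3 each). The difference was -1.17 (SE 0.16), 2.25-fold lower in CD103+ cells, with an adjusted p of 0.0202 in limma. In sorted populations such as these, fewer cells that hold a transcript and less of it per cell cannot be told apart. Blocking on the replicate number gave an adjusted p of 0.0565. Against the 1 CD103- array left without the dim arrays 2 and 3, the difference was -1.31, a value with no replicate in CD103- cells. The call was lost without CD103+ replicate 1 (0.144), 2 (0.0946) or 3 (0.113) and without CD103- replicate 2 (0.0614), while the difference in these ran only from -1.22 to -1.12.

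**Figure D2:**
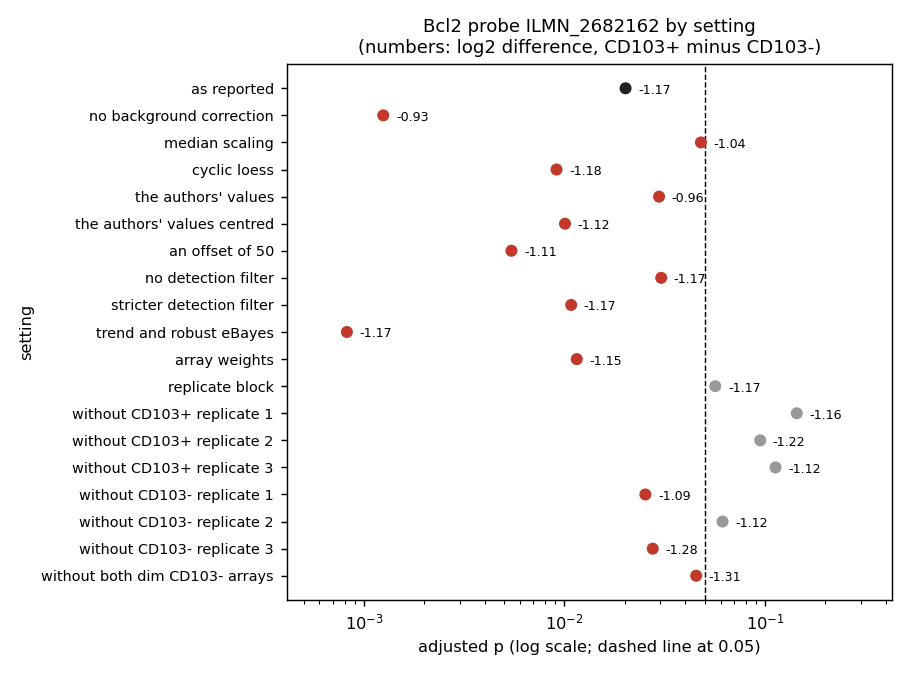
Adjusted p of Bcl2 probe ILMN_2682162, on a log axis, as reported and under 18 alternatives, with the log2 difference printed beside each point and the threshold of 0.05 dashed. Grey points miss the threshold, which 13 of the alternatives passed. In the lowest point, 1 of these, 3 CD103+ arrays face 1 CD103- array, which is assumed to vary as the CD103+ arrays do.

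The other 5 kept Bcl2 probes are annotated to the first transcript, and none was called. Probe ILMN_1249021, with the highest signal, gave 11.25, 10.79 and 11.03 in CD103+ cells against 11.61, 11.34 and 11.31 in CD103- cells, which did not overlap (-0.39, SE 0.17, adjusted p = 0.350). Probe ILMN_1249366 gave 10.52, 10.29 and 10.57 against 11.06, 10.79 and 10.96, also without overlap (-0.47, SE 0.15, adjusted p = 0.227). The populations overlapped at the remaining 3, where the differences were -0.35, -0.27 and -0.45 with adjusted p of 0.538, 0.581 and 0.354. Each of the 6 kept probes had a negative difference as reported and in all 84 values from the 14 alternatives that can move a difference, the other alternatives changing only the filter or the test. Their mean per array was 9.42 ± 0.06 in CD103+ cells and 9.93 ± 0.20 in CD103- cells (SD, n = 3), a difference of -0.52 with an exact permutation p of 0.1, two-sided, the smallest that 3 arrays against 3 allow. The mean includes the called probe and was taken because Bcl2 carries the call, so this p adds no separate support. A further 3 Bcl2 probes were detected on no array.

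**Figure D3:**
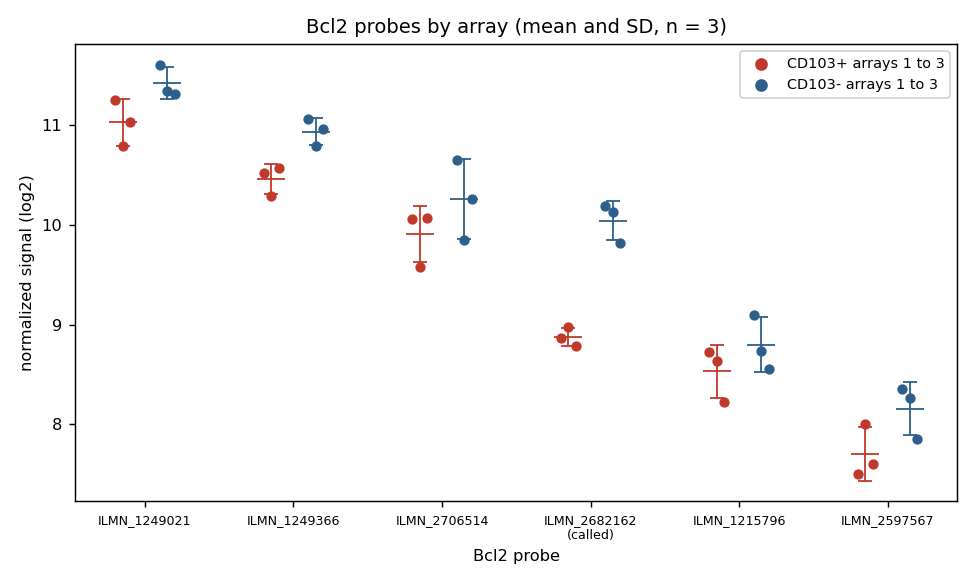
Normalized log2 signal of the 6 kept Bcl2 probes on each CD103+ and CD103- array, with the mean and SD of 3 arrays. The populations are apart at ILMN_1249021, ILMN_1249366 and ILMN_2682162, the last of which falls from 10.04 in CD103- to 8.88 in CD103+ cells.

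The called probe was also set against the mean of the other 5 on each array. This gap was -0.75, -0.48 and -0.71 on CD103+ arrays and 0.03, 0.33 and 0.03 on CD103- arrays, so that it differed by -0.78 between the populations. The probe was picked for having the largest difference, so the gap describes these arrays and is not tested, and a single value of it compares different probes and has no meaning as a level. Whether the transcripts the probes are annotated to play a part was not tested.

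The promoter of Bcl2 is shown because Bcl2 carries the call among the members. It is taken from the RefSeq promoter table of build GRCm38.p6 and lies on the minus strand at chr1:106714241-106714540, from 250 bases before to 50 after the annotated start. In capitals is TGACG, the first letters of the cyclic AMP response element TGACGTCA, to which CREB family proteins bind.
Bcl2: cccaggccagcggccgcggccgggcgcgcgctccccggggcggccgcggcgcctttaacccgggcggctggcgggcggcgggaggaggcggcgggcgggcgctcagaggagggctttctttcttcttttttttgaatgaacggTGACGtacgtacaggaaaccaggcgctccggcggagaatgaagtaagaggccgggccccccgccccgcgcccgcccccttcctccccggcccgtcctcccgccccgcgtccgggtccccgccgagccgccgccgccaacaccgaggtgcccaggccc
Motifs were searched on both strands. TGACG occurs in 20.8% of the 32851 promoters in the table. The window holds 7 matches to the SP1 box GGGCGG, which 35.7% of promoters hold at least once, and no full TGACGTCA, which 1.79% hold. TGACG is part of the full element, so these counts are not independent, and a match describes the window only.

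A1, the survival protein that NF-kB induces in activated lymphocytes, is encoded in mice by near-identical copies, of which Bcl2a1b and Bcl2a1d had kept probes. The Bcl2a1b probe gave 12.50, 12.36 and 12.58 in CD103+ cells against 12.73, 13.09 and 12.74 in CD103- cells, without overlap (-0.38, SE 0.16, adjusted p = 0.332). The brighter Bcl2a1d probe, ILMN_2660555, gave 12.73, 12.79 and 12.76 against 13.01, 13.35 and 13.06, also without overlap (-0.38, SE 0.15, adjusted p = 0.301). The second Bcl2a1d probe overlapped, at -0.24 (adjusted p = 0.507). None of these was called. The promoters of the copies are printed to show how alike the genes are, from the same table and build: Bcl2a1a at chr9:88956670-88956969 on the plus strand, Bcl2a1b at chr9:89199023-89199322 on the plus strand and Bcl2a1d at chr9:88731801-88732100 on the minus strand. Capitals mark GAGGAAGTG, a box of the type bound by PU.1 and other ETS factors.
Bcl2a1a: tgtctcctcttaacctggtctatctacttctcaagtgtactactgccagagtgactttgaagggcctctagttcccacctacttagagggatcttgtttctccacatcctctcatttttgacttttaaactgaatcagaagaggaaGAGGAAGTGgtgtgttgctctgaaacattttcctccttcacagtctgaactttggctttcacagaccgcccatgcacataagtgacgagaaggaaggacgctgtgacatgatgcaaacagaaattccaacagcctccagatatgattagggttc
Bcl2a1b: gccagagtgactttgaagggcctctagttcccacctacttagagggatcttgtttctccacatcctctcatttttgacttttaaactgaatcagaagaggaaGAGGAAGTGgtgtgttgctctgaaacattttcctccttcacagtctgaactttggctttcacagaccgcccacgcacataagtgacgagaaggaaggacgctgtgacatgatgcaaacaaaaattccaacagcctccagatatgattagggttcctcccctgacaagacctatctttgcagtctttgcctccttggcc
Bcl2a1d: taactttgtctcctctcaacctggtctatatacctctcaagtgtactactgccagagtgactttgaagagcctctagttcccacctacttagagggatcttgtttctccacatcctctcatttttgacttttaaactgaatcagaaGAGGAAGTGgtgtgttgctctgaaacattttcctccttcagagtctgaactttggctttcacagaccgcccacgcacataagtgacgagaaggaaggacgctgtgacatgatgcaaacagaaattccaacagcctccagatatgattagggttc
Over the part that aligns, Bcl2a1a and Bcl2a1b are identical at 254 of 256 bases, Bcl2a1a and Bcl2a1d at 288 of 300 alignment columns and Bcl2a1b and Bcl2a1d at 247 of 256. GAGGAAGTG is in 1.57% of all promoters and once in each of these 3. Probes to copies so alike may read one another's transcripts, so the Bcl2a1b and Bcl2a1d values are uncertain as values of single genes, and the alignment was made on promoters, not on probes.

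Of the remaining survival proteins, Mcl1 had levels of 11.76, 11.83 and 11.75 in CD103+ cells and 11.57, 11.59 and 11.65 in CD103- cells. MCL1 is a short-lived protein on which lymphocytes depend. Its populations did not overlap, but the difference was 0.18 (SE 0.13, adjusted p = 0.553). Bcl2l1, which encodes BCL-XL, gave 5.70, 6.02 and 5.96 against 5.98, 5.86 and 5.17, which overlapped, and its difference of 0.23 (adjusted p = 0.690) turned to -0.37 under median scaling and -0.07 in the authors' values after centring. The 2 kept probes of Bcl2l2, the gene of BCL-W, gave 0.40 (adjusted p = 0.358) and 0.01, with overlap at both. Over the 13 kept probes of the survival group, 4 differences were above 0 and 9 below, with a median of -0.35. The 9 comprise the 6 Bcl2 probes and the 3 of the A1 copies, so they stand for few separate genes.

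**Figure D4:**
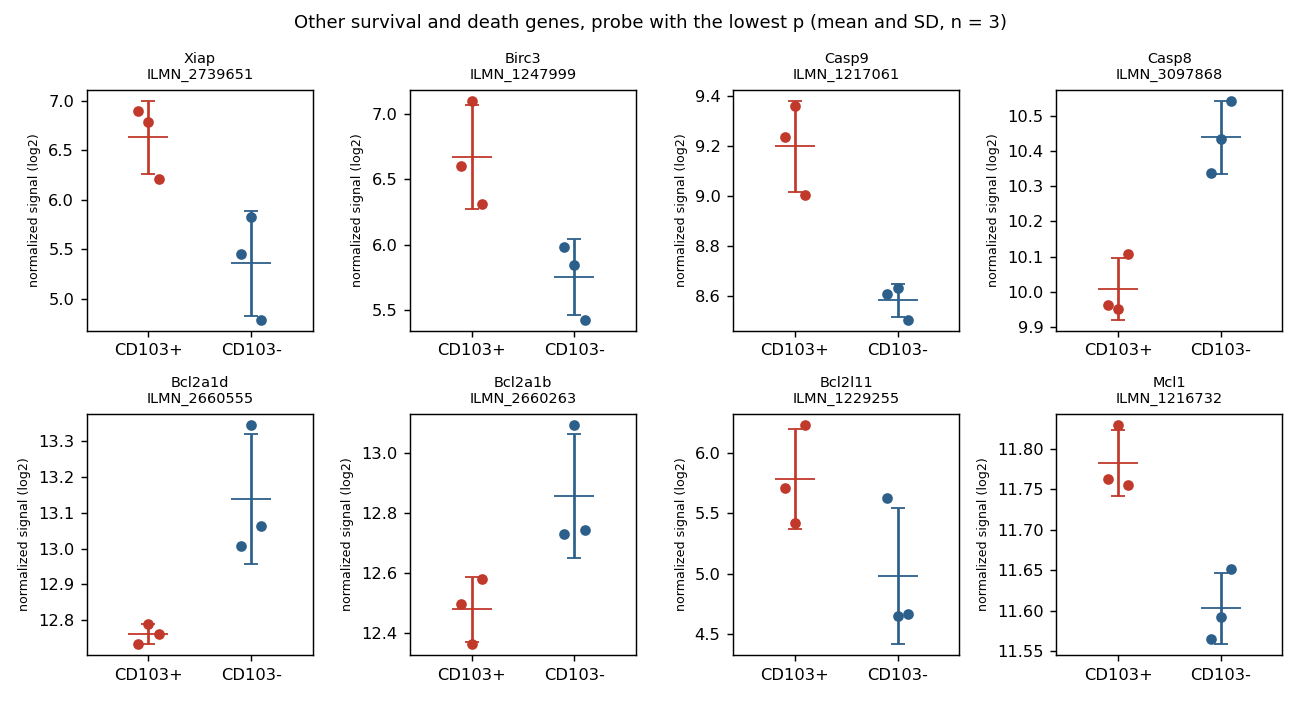
Normalized log2 signal on each array for 8 probes of Xiap, Birc3, Casp9, Casp8, Bcl2a1d, Bcl2a1b, Bcl2l11 and Mcl1, with the mean and SD of 3 arrays per population. For each gene the kept probe with the lowest limma p is shown. At Bcl2l11 this is the dim ILMN_1229255, detected on 1 of 3 CD103- arrays and too near background to give a direction. The other kept Bcl2l11 probes, not shown, gave -0.40 and -0.27. Each panel has its own vertical axis, which does not start at 0, and none of these probes was called, the lowest adjusted p being 0.120 at Xiap.

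The pore formers gave no value to test. Bax had no named probe, and the single Bak1 probe was detected on 1 of 6 arrays. Among the BH3-only genes, Pmaip1 (NOXA, 3 probes), Bmf and Bnip3 were detected on no array, with detection p from 0.0609 to 0.943 in Pmaip1, from 0.103 to 0.870 in Bmf and from 0.247 to 0.955 in Bnip3. For these genes no difference was detectable, and a low level cannot be told from none.

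BIM, encoded by Bcl2l11, is the BH3-only protein central to the death of thymocytes and cytokine-deprived T cells. Its probe ILMN_2590638 gave 7.71, 7.41 and 7.33 in CD103+ cells against 7.999, 7.89 and 7.75 in CD103- cells, without overlap (-0.40, SE 0.16, adjusted p = 0.313). Probe ILMN_3157568 overlapped, at -0.27 (adjusted p = 0.504). The dim probe ILMN_1229255 gave 5.71, 5.42 and 6.23 against 5.63, 4.65 and 4.66. Its difference was 0.81 (SE 0.32, adjusted p = 0.307), but it was detected on only 1 of 3 CD103- arrays, and the difference was 0.19 with undetected arrays set at the lowest detected signal and -0.14 under median scaling. This probe is too near background to give a direction, and none of the BIM probes was called.

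The other BH3-only genes had small differences. Bad, whose protein is held inactive by growth factor signalling, gave 7.86, 7.90 and 7.81 against 7.57, 7.79 and 7.57, apart but by only 0.21 (SE 0.14, adjusted p = 0.511). Bnip3l (NIX), which also takes part in the removal of mitochondria, gave 11.34, 11.57 and 11.57 against 11.18, 11.28 and 11.31, again apart, by 0.24 (SE 0.14, adjusted p = 0.479). Bbc3, which encodes the p53 target PUMA, gave 9.58, 9.80 and 9.41 against 9.12, 9.25 and 9.41 on its brighter probe, which met at their edges (0.34, SE 0.16, adjusted p = 0.385), and 0.40 on the other, which was undetected on 1 CD103- array. The difference of this dim Bbc3 probe ran from -0.25 to 0.60 over the alternatives and was 0.16 with undetected arrays at the lowest detected signal. Bid, the link from caspase-8 to mitochondria, gave 0.30 and, on a dim probe, 0.19, and Bik -0.24, each with overlap. That dim Bid probe was undetected on 2 of 3 CD103- arrays, and its sign turned with the processing, from -0.68 to 0.44 over the alternatives and -0.21 with undetected arrays at the lowest detected signal. Over 10 kept BH3-only probes, 7 differences were above 0 and 3 below, with a median of 0.23 and 0 calls in limma. The 7 include the dim Bid, Bbc3 and Bcl2l11 probes, whose sign is not settled. The 2 at an unadjusted p under 0.05 are both Bcl2l11 probes, 1 of them the dim one.

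In the death receptor complex, Fas itself was nearly equal on its brightest probe, at 9.30, 9.01 and 9.24 against 9.26, 9.07 and 9.23. The difference was -0.0030 (SE 0.15, adjusted p = 0.993), with a sign that turned under median scaling (0.11) and in the authors' values before and after centring (0.19 and 0.03). A dimmer Fas probe, ILMN_2582933, gave 6.09, 6.32 and 6.24 against 6.46, 6.47 and 6.88, without overlap (-0.39, SE 0.17, adjusted p = 0.342), and the third gave -0.06. Fadd, the adaptor between FAS and caspase-8, had differences of 0.07, 0.07 and 0.41, each with overlap. Cflar, which encodes c-FLIP, the blocker of caspase-8 activation, gave 8.98, 9.15 and 8.96 against 9.04, 9.32 and 8.997. Its difference of -0.09 (adjusted p = 0.825) turned to 0.03 under median scaling and 0.11 in the authors' values. Tradd, the adaptor of TNF receptor 1, gave 0.23, with the populations apart, and 0.31, with overlap.

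Casp8 had the largest difference among the kept probes of this complex. Its probe ILMN_3097868 gave 9.96, 9.95 and 10.11 in CD103+ cells and 10.34, 10.44 and 10.54 in CD103- cells. The populations were apart, and the difference of -0.43 (SE 0.14) had an adjusted p of 0.225, above the threshold. Its brighter probe, ILMN_1243876, gave 10.93, 10.86 and 10.92 against 11.002, 10.96 and 11.14, also apart, at -0.13 (SE 0.13, adjusted p = 0.675), which became 0.04 in the authors' values. Over the 11 kept probes of the complex, the median was -0.0030, from -0.43 to 0.41.

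Among the downstream caspases and the apoptosome, Casp9, the initiator caspase activated by APAF1, had the largest difference. Its levels were 9.23, 9.36 and 9.001 in CD103+ cells and 8.61, 8.63 and 8.50 in CD103- cells. The populations were apart by more than the spread within either (9.20 ± 0.18 against 8.58 ± 0.07, SD, n = 3). The difference of 0.62 (SE 0.15, 1.54-fold) had an adjusted p of 0.130 in limma and was not called. Over the 18 alternatives its adjusted p ran from 0.04998 to 0.457 and passed in 1, the fit without background correction, while the difference was 0.59 without the dim arrays. Its other 3 probes were under the filter. Apaf1 gave -0.01, -0.09 and, on its dimmest probe, -0.40, where 6.93, 6.84 and 6.75 stood apart from 7.53, 7.12 and 7.08 (SE 0.17, adjusted p = 0.331). Cycs, the gene of cytochrome c, gave 0.08, 0.29 and 0.30 with overlap at each. The 0.30 is of a dim probe, detected on 2 of 3 CD103- arrays, whose difference ran from -0.25 to 0.49 over the alternatives. Casp2, at -0.0023 and -0.09, and Casp6, an executioner caspase, at -0.19 and 0.26, also overlapped. The 11 kept probes had a median of -0.0023.

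The largest positive differences as reported, at Xiap and Birc3, belonged to inhibitors of apoptosis, and both were of dim probes. The order depends on the scaling: Casp9 was above both under median scaling (0.71, against 0.68 and 0.44) and without background correction (0.45, against 0.41 and 0.31). XIAP binds and blocks caspase-9 and the executioner caspases. Its probe ILMN_2739651 gave 6.90, 6.79 and 6.21 in CD103+ cells and 5.45, 5.83 and 4.79 in CD103- cells, apart but with a wide spread (6.63 ± 0.37 against 5.36 ± 0.53, SD, n = 3). The difference was 1.28 (SE 0.30, 2.42-fold) with an adjusted p of 0.120, and 0.0604 with the replicate block. It was detected on 2 of 3 CD103- arrays, and with the undetected array at the lowest detected signal the difference was 1.03. It depended on the processing, at 0.41 without background correction, 0.68 under median scaling and 1.18 without the dim arrays, and passed the threshold in 0 of 18 alternatives (adjusted p 0.0543 to 0.421). A second Xiap probe was not detected on any CD103- array and gives no fold, since its CD103+ levels of 5.39, 5.48 and 5.39 lay within the lowest detected signals of 5.28, 5.64 and 5.53 on the CD103- arrays.

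Birc3 encodes cIAP2, a ubiquitin ligase of TNF receptor signalling and a target of NF-kB. Its probe gave 6.60, 7.10 and 6.31 in CD103+ cells and 5.99, 5.84 and 5.43 in CD103- cells. The populations were apart, with a difference of 0.92 (SE 0.25, 1.89-fold, adjusted p = 0.155). The probe was undetected on 1 CD103- array, and the difference was 0.89 with that array at the lowest detected signal, 0.69 without the dim arrays and 0.44 under median scaling. Whether macrophage RNA contributes to the Xiap and Birc3 values was not tested. The 4 Birc2 probes, for the related cIAP1, gave -0.14, 0.10, -0.14 and -0.15, and the 3 of Birc6, which encodes the large inhibitor BRUCE, -0.05, -0.27 and 0.42, all with overlap. The 0.42 is of a dim Birc6 probe, detected on 2 of 3 CD103- arrays, whose difference ran from -0.25 to 0.65 over the alternatives. Diablo, the antagonist, gave -0.13 (adjusted p = 0.698). Over the 11 kept probes of this group, 5 differences were above 0, the undetected Xiap probe among them, and 6 below, with a median of -0.05.

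**Figure D5:**
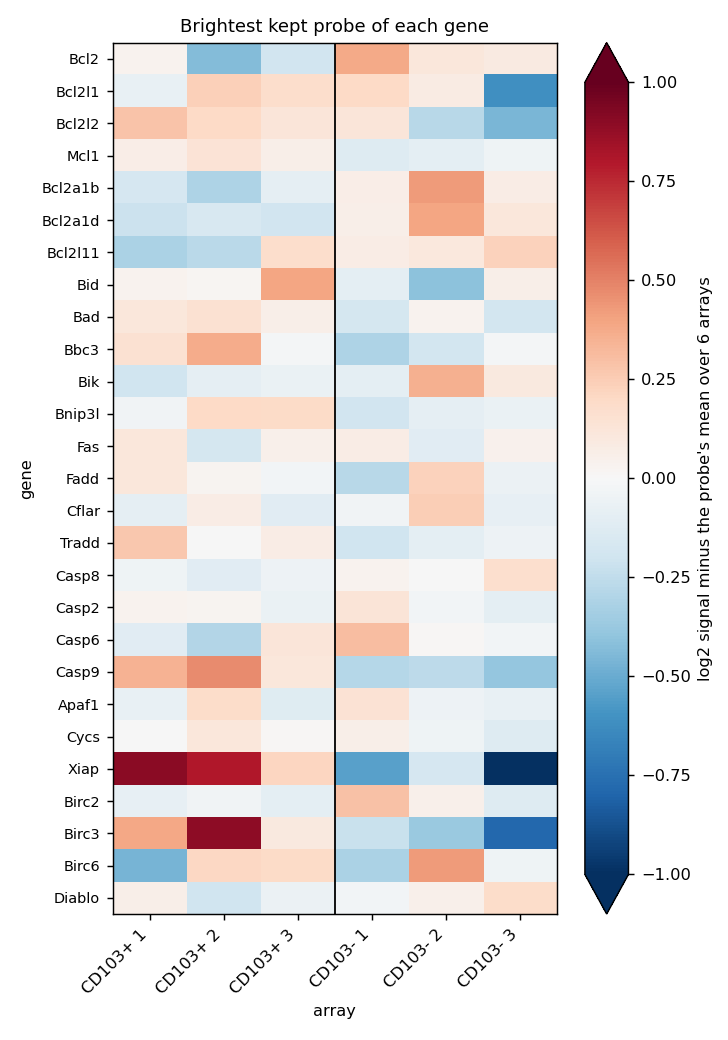
Log2 signal of the brightest kept probe of each of 27 genes on each array, as its distance from the probe's mean over 6 arrays, with red above and blue below and colours ending at 1 log2 unit. Casp9, Xiap and Birc3 are red on all CD103+ arrays, and Bcl2a1b and Bcl2a1d are blue there. The Bcl2 row is the uncalled ILMN_1249021. Values of Bcl2, Mcl1, Bad, Bnip3l, Tradd and Casp8 are also apart at the line between the populations, and those of the other genes overlap.

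Genes around these members in the same pathways were taken from 9 lists with 125 genes, of which 94 had a kept probe. By the brightest probe, 0 were called higher and 1 lower in CD103+ cells, with a median difference of -0.03. At an unadjusted limma p under 0.05 there were 16, or 17.0%, against 14.2% of all genes by their brightest probe, so the lists lay near the background. The call was Tnfrsf25, among 12 measured death receptors and ligands, which encodes DR3, the receptor for TL1A. It gave 8.19, 8.68 and 8.30 in CD103+ cells against 9.49, 9.35 and 9.50 in CD103- cells, apart by far more than the spread within either. The difference was -1.06 (SE 0.17, 2.08-fold lower) with an adjusted p of 0.0391, and 0.0971 with the replicate block. It passed in 8 of 18 alternatives (0.0042 to 0.210), and the gene's other kept probe gave -0.16. The other gene of this list at an unadjusted limma p under 0.05 was Tnfrsf21, which went the other way. Its difference was 0.71, with detection on 3 CD103+ arrays and 2 CD103- arrays.

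By the brightest probe of each gene, the remaining lists had 0 calls in limma in either direction. The same 14.2% is the background for their counts at an unadjusted p under 0.05. They held 1 of 2 measured other caspases (Casp1, 0.41), 1 of 9 other BCL2 family members (Bnip1, -0.56) and 1 of 10 mitochondrial and apoptosome factors (Aifm2, 0.51). There were 3 of 14 in the p53 network (Sesn1, -0.49, Sesn2, 0.48, and Mdm2, -0.33, where other kept probes gave -0.42 to -0.03, -0.09 and 0.05), 3 of 22 in TNF receptor signalling to NF-kB (Relb, -0.53, Tnip1, -0.51, and Traf2, 0.42), 1 of 5 in necroptosis (Zbp1, -0.51) and 0 of 3 other inhibitors of apoptosis. Survival signalling had 4 of 18. Il7r, the IL-7 receptor chain whose signal sustains Bcl2 in T cells, gave 13.58, 13.51 and 13.59 in CD103+ cells against 12.97, 12.95 and 12.86 in CD103- cells, apart by 0.64 (SE 0.13, adjusted p = 0.0786). The other kept probes of Il7r, which has 5, gave 0.88 to 1.21 and do not enter the count of calls. The brightest one passed the threshold in 5 of 18 alternatives (adjusted p 0.0016 to 0.370). Il2rb, the chain shared by the IL-2 and IL-15 receptors, gave 9.70, 9.41 and 9.56 against 10.04, 10.50 and 10.13, apart by -0.66 (SE 0.18, adjusted p = 0.152). Foxo1 gave 0.46, and 0.54 on its other kept probe. Stat5a gave -0.62, but its other kept probe gave 0.73, so that it has no settled direction.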

How the data were processed

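Transcripts of 3 CD103+ and 3 CD103- samples were measured on Illumina bead arrays. The deposited intensity values are 1 signal per probe and array, not normalized, with another value beside each, a detection p per the file headers. A second deposited table holds the authors' log2 values, whose scaling is not given in the sources used here. Of 45281 probes, 18 with shifted cells were left out. Of the others, 34874 carried 1 gene symbol, 18 carried more and 10371 carried none. The neqc function (limma 3.58.1, R 4.3.3) corrected the background from the detection p, quantile-normalized the signals and took log2 with an offset of 16. The 17462 kept probes were tested with lmFit and eBayes, two-sided, with Benjamini-Hochberg adjustment. A gene was taken by its brightest kept probe. Promoters came from RefSeq. Every member was named by rule. Members and lists were chosen with earlier results of these data known. The number of arrays limits the precision (median SE 0.195, 7.34 degrees of freedom).

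Deviations of arrays from their population mean correlated at 0.17, 0.125 and 0.305 for equal replicate numbers and at -0.231 to 0.0824 for different ones. Equal numbers thus correlated higher, but 3 arrays per population are weak ground for a pairing. The calls and counts reported use no pairing, and the fit with the numbers as a block is given where it changes a call. The labels name no shared animal or day, so a pairing would rest on these correlations alone. Alternatives were other background, scaling, offset and filter settings, the authors' values, other eBayes settings, array weights, the block and leaving out arrays.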

Additional observations from a re-analysis of the deposited data

How the results depend on the processing

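Of 393 values of 22 followed probes over 18 alternatives, 370 kept direction and side of the threshold, 5 lost the Bcl2 call, 1 gained a call and 17, in 6 probes, changed sign. Only 14 of the alternatives can move a difference, so in the others the direction was kept by construction. Of the followed probes, only the Bcl2 probe ILMN_2682162 was called as reported. Calls over all probes were 321 without background correction, 313 with the authors' values, 369 with a trend and robust eBayes, 397 with array weights, 83 with the replicate block, 135 without both dim CD103- arrays and 52 to 857 leaving out 1 array, against 206. Member probes called were 2 without background correction (Casp9 added), 0 with the replicate block and 0 to 1 leaving out 1 array; member genes called were 1 by any kept probe, against 0 by the brightest. Without the dim arrays, where 3 arrays face 1, 34 member probes (60.7%) were separated, against 62.2% of all. The median member difference was -0.083 under median scaling, 0.113 in the authors' values and -0.085 with the stricter filter. In the authors' values the median difference of all kept probes was 0.134. Centring each array on its own median over the kept probes was added after seeing the data and gave -0.030. Signs turned under median scaling for Xiap ILMN_1221270 (-0.48), Bcl2l11 ILMN_1229255 (-0.14), Cflar (0.028), Bcl2l1 (-0.37) and Fas (0.11). They turned in the authors' values for Casp8 ILMN_1243876 (0.038), Cflar (0.11) and Fas (0.19), after centring for Bcl2l1 (-0.071) and Fas (0.028), with array weights for Fas (0.065) and without the dim arrays for Bcl2l1 (-0.084). Leaving out 1 array gave -0.15 to 0.015 for Cflar, -0.025 to 0.38 for Bcl2l1 and -0.062 to 0.083 for Fas. The cause of these changes was not tested. Signals near background limit Xiap, Birc3, Bcl2l1 and the dim probes of Bcl2l11, Bid, Bbc3, Cycs and Birc6. The dim Bid, Bbc3, Cycs and Birc6 probes also changed sign over the alternatives, but they were not followed and are not in the counts above.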
